A study of Homo sapiens with 8 samples.

Results

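The genes described here are the ubiquitin-specific proteases (USPs), taken by symbol from a deposited table of gene models in cells labelled HepG2. Every symbol made of USP and a number, with or without a trailing X or L, was a member, except USP18 and the Y-linked USP9Y. The rule found 50 genes among 24721 symbols (25918 gene models), and each had 1 gene model in the table. The study mapped N6-methyladenosine (m6A), a methyl mark on adenosines within mRNA, by precipitating short RNA fragments with an antibody against m6A and sequencing them beside the unselected input. HepG2 is an established human line derived from a hepatic carcinoma. All 4 groups were HepG2 cultures given a treatment: UV light at 0.04 J per square centimetre, heat shock at 43 °C for 30 min, hepatocyte growth factor (HGF, 10 ng/ml), or interferon gamma (IFNg, 200 ng/ml). The ligands were left on overnight, and UV was followed by 4 h of recovery, a step whose wording may also cover heat shock. Each treatment had 1 immunoprecipitated (IP) and 1 input library, so no value below has a replicate, and no untreated culture was analysed here. All differences are therefore between these libraries and carry no test of the treatments.

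USPs are cysteine proteases that cut ubiquitin from proteins and so spare them from the proteasome or end a ubiquitin signal. They form the largest family of human deubiquitinases, and members share a catalytic domain but differ in the domains around it, in location and in substrates. In mRNA, m6A is placed by the METTL3 and METTL14 methyltransferase within short motifs that often have a GGAC core, most often in long internal exons and near the stop codon.

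The table gives, per treatment, an expression rank for each gene model, given below as a percentile. It is a rank and not an amount. The sources do not say which of the IP and input libraries it was taken from or whether it is per transcript length, and read depth is unknown. Where 4 values follow each other without labels, their order is UV, heat shock, HGF, IFNg. The lowest rank was shared by many models and is called the floor, which lay at percentile 45.5, 32.7, 20.4 and 18.4. For gaps between treatments and for means compared between stresses and ligands, values under 45.5 were raised to it. A gene's spread and its highest and lowest treatment were read from the ranks as deposited. Genes were compared only if they reached percentile 60 in any treatment, as 12408 symbols did. The cell label was checked against 10 hepatocyte markers. Of these, 9 did not reach percentile 60 in any treatment, among them ALB (albumin) at percentiles 45.5, 57.6, 24.9 and 22.3. AFP, APOA1, APOB, FGB, TF, AHSG, HNF4A and APOH were the others, and FGB and APOH were at the floor throughout. TTR alone passed, at 76.1, 71.5, 43.0 and 42.0. From its lowest to its highest gene, the hepatocyte list spanned 45.5 to 76.1 (UV), 32.7 to 71.5 (heat shock), 20.4 to 42.95 (HGF) and 18.4 to 56.9 (IFNg). These ranks go against the hepatocyte origin that the label gives, and the part this plays in the results below was not tested. None of 5 blood cell markers passed, and 2 of 5 fibroblast and endothelial markers did (COL1A1 at 64.7, 60.7, 83.6 and 80.9, and COL3A1).

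The median percentile of the USP genes was 76.7 (UV), 77.4 (heat shock), 74.9 (HGF) and 73.6 (IFNg), where the median of all symbols was 51.5 in each treatment. Percentile 90 or more was reached by 13, 14, 6 and 5 members, that is 26%, 28%, 12% and 10% of the 50, beside 10.4% of all symbols in each treatment. At percentile 75 or more stood 26, 28, 25 and 24 members, beside 25.9% to 25.97% of all symbols. In all 4 treatments, 19 members held percentile 75 or more and 3 held 90 or more, counts that were not set beside a share of all symbols. Of the 50, 43 passed the filter and 7 did not. Many of all symbols lay at or near the floors, so the 43 were also set beside the symbols past the filter. There 30.2%, 32.6%, 13.95% and 11.6% of members reached percentile 90, beside 20.7% of symbols in each treatment, so that the member share was the larger after both stresses and the smaller after both ligands.

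**Figure D1:**
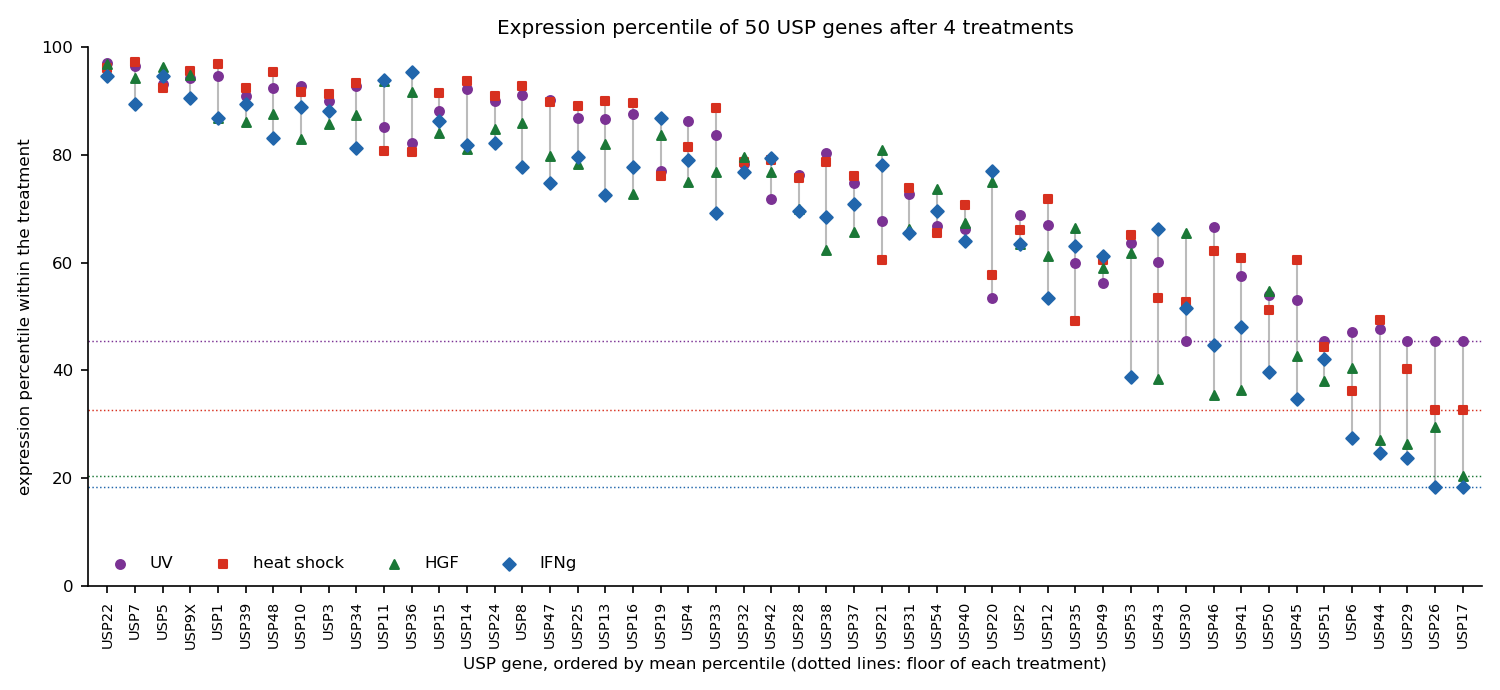
Expression percentile (vertical axis, 0 to 100 within a treatment) of the 50 USP genes, ordered by mean percentile. Each symbol is 1 treatment (circle UV, square heat shock, triangle HGF, diamond IFNg), grey lines span the 4 values and dotted lines mark each treatment's floor. USP22, USP5 and USP9X stay above 90 in all 4 treatments, and USP26 and USP17 sit at or near the floors.

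The 5 highest members were USP22, USP7, USP5, USP9X and USP1. USP22, the deubiquitinase of the SAGA complex that removes ubiquitin from histone H2B, stood at percentile 97.1 (UV), 96.2 (heat shock), 96.9 (HGF) and 94.6 (IFNg), a spread of 2.51 points. USP7, which stabilises both p53 and its ligase MDM2, had 96.4, 97.2, 94.2 and 89.5 in the same order, with IFNg lowest. USP5, which takes apart free ubiquitin chains, had 93.2, 92.3, 96.3 and 94.6, and both ligand treatments lay above both stress treatments. USP9X, a very large protease that counters the degradation of MCL1 and other substrates, had 94.3, 95.5, 94.9 and 90.6. USP1, which deubiquitinates FANCD2 and PCNA in DNA repair, had 94.6 and 96.8 under the stresses against 86.9 and 86.8 under the ligands. Its stress and ligand values did not overlap.

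The 5 lowest members past the filter were USP45, USP41, USP46, USP30 and USP43, with mean percentiles of 47.7 to 54.6. USP45, linked to ERCC1 in DNA repair, stood at 53.01, 60.5, 42.7 and 34.6, with its highest value after heat shock. USP41 stood at 57.4, 60.9, 36.3 and 48.1, and USP43 at 60.2, 53.5, 38.4 and 66.2. The sequence of USP41 is nearly the same as that of USP18, so its rank is uncertain. The 7 members under the filter were USP50, USP51, USP6, USP44, USP29, USP26 and USP17. USP17 stood at the floor after UV, heat shock and IFNg and next to it after HGF (20.4), and USP26 at the floor in 3 treatments and at 29.5 after HGF. USP17 is a multicopy gene and USP6 shares much of its sequence with USP32, so reads may have been split among copies. The deposited spans of USP50 and USP8 overlap on opposite strands, and the sources do not say whether strand was used.

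By role, the 3 members grouped under the proteasome and free chains ranked highest after UV and heat shock (medians 92.2 and 92.3) and had medians of 82.01 (HGF) and 81.8 (IFNg). Of the 3, USP14 and USP13 ranked higher after both stresses, and USP5 higher after both ligands. The 11 members of chromatin and DNA damage, 9 of them past the filter, had medians of 87.5, 89.6, 79.8 and 77.7 in treatment order. The 8 members of receptor, TGF-beta, Wnt and NF-kB signalling all passed, with medians of 86.5, 85.3, 79.5 and 79.3. USP36, a nucleolar protease, and USP39, a splicing factor without protease activity, had joint medians of 86.6, 86.5, 88.9 and 92.4. They went opposite ways. USP36 ranked higher after the ligands, while USP39 had 90.9 and 92.5 after the stresses against 86.1 and 89.4. Only the 6 members of membranes, endosomes and organelles joined USP36 and USP39 in having higher medians after the ligands (75.9 and 73.1) than after the stresses (65.2 and 66.9). Of the 6, USP19 and USP20 ranked higher after both ligands, and USP8 and USP33 higher after both stresses. The values of USP30 and USP6 overlapped. USP2, USP10 and USP37, of p53 and the cell cycle, had medians of 74.8, 76.1, 65.6 and 70.9. The 17 remaining members, often little studied, had medians of 63.6, 65.1, 62.3 and 64.04, and 13 passed the filter.

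As deposited, the 4 percentiles of a member spread over a median of 11.4 points, against 12.8 over all symbols past the filter. In 4 of the 43 they spread by less than 5 points, a count that was not set beside a share of all symbols. A gene was counted as ranked apart in a treatment when it lay at least 10 points beyond all other 3, and 3 members were. USP35 was the single member lower after heat shock (1 of 43, 2.33%, beside 3.97% of symbols). It stood at 59.9 (UV), 49.2 (heat shock), 66.4 (HGF) and 63.02 (IFNg). USP30, an enzyme of the outer mitochondrial membrane that opposes mitophagy, was the single member higher after HGF (2.33%, beside 1.56% of symbols). It had 65.4 after HGF, while the others were 45.5 (UV, at the floor), 52.7 (heat shock) and 51.6 (IFNg). USP30 thus passed the filter only through HGF, the treatment in which it was called. Without the filter it was still called, beside 1.15% of all symbols. USP53, a tight junction protein, was the single member lower after IFNg (2.33%, beside 3.01%). It had 63.6, 65.1, 61.8 and 38.9, the last being under the highest floor.

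The other directions held 0 members. The shares of all symbols were 1.81% higher and 2.07% lower after UV, 2.83% higher after heat shock, 1.37% lower after HGF and 3.34% higher after IFNg. Just short of 10 points lay USP13, a relative of USP5, which stood 9.53 points lower after IFNg than in any other treatment. Each of the 3 members ranked apart stood under percentile 60 in at least 1 treatment. None of the 30 members that reached percentile 75 somewhere was ranked apart. Of the 8465 symbols that reached it, 0.732% to 3.97% were ranked apart in each direction. With a correction for GC content, described below, USP30 kept its call, USP35 and USP53 lost theirs, and USP43 was lower after HGF, where 1.02% of symbols were higher and 1.48% lower after HGF. When ranks were counted downward from the top gene, put in log2 units and called at a 2-fold difference, 0 of the 3 remained, and the shares of all symbols in these 3 directions were 0.975%, 0.613% and 0.733%.

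Most members ranked higher under the stresses than under the ligands. In 27 of 43 (62.8%) both stress values lay above both ligand values, beside 36.6% of symbols. In 8 (18.6%) both ligand values lay above both stress values, beside 30.9% of symbols, and in the other 8 the values overlapped. Some of these genes passed the filter only through the pair in which they ranked higher. They were USP46 (both stresses), USP41 and USP45 (heat shock alone), and USP20 and USP35 (both ligands). The median difference, mean of UV and heat shock minus mean of HGF and IFNg, was 6.25 points for members and 0.738 points over all symbols past the filter. Heat shock held the highest of the 4 values in 22 members, UV in 8, IFNg in 7 and HGF in 6 (51.2%, 18.6%, 16.3% and 14.0%). Over all symbols past the filter these shares were 33.2%, 20.3%, 25.4% and 20.99%. The lowest value was after IFNg in 18, HGF in 14, heat shock in 7 and UV in 4 (41.9%, 32.6%, 16.3% and 9.30%), beside 33.02%, 21.5%, 29.1% and 16.4% of symbols. These counts used the ranks as deposited, in which HGF and IFNg had the lowest floors (20.4 and 18.4).

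A gap of at least 10 points between the pairs was reached by 4 members in favour of stress (9.30%, beside 5.71% of symbols). USP14, which trims ubiquitin chains on the proteasome, stood at 92.2 (UV) and 93.6 (heat shock) against 81.1 (HGF) and 81.8 (IFNg). USP47, which acts on DNA polymerase beta in base excision repair, had 90.2 and 89.8 against 79.8 and 74.8. USP38 had 80.3 and 78.7 against 62.3 and 68.4. USP46, which like USP1 and USP12 works with the cofactor WDR48, had 66.6 and 62.3 against 35.5 and 44.6, both ligand values being under the highest floor. It passed the filter only through the stresses. Gaps just under 10 points were those of USP16, an H2A deubiquitinase (9.77 points), and USP41 (9.37 points). The narrowest gap of the 4 called members was that of USP47, at 10.02 points. In log2 units of rank, USP14 kept its call and USP1 took the place of the other three (4.65% of members, beside 4.01% of symbols).

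In favour of the ligands, 2 members had such a gap (4.65%, beside 7.98% of symbols). USP20, which deubiquitinates HIF1A, stood at 75 (HGF) and 77 (IFNg) against 53.5 (UV) and 57.6 (heat shock). It passed the filter only through the ligands. USP21, a protease of histone H2A and of signalling proteins, had 80.8 and 78.2 against 67.7 and 60.6. USP36 was just short, at 91.7 and 95.4 against 82.3 and 80.6, a gap of 9.44 points, and USP11, a relative of USP4 and USP15, had 93.6 and 93.9 against 85.1 and 80.7, a gap of 8.55 points. In log2 units of rank, USP11 and USP36 were called in place of USP20 and USP21 (4.65%, beside 5.57% of symbols).

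Transcript GC content moved with this difference. Over the 43 members the difference correlated with GC content of the longest GENCODE 29 transcript at Pearson r = -0.774 and Spearman rho = -0.774, and over 10977 symbols at -0.693 and -0.721. These are descriptions across genes of the same libraries, which are not independent points. When symbols were split by GC content into 10 bins of equal size, the median difference was 10.1 points in the lowest bin and -11.9 in the highest. The members had a median GC content of 45.3% (34.5% to 61.3%), against 48.1% over all symbols past the filter. USP14, USP38, USP46 and USP47 had 38.1%, 40.1%, 40.6% and 41.6%, while USP20 and USP21 had 60.3% and 52.2%. Set against the median of their own GC bin, 30 members lay above it and 13 below, and the median distance was 2.21 points above. When the median of symbols of like GC content was subtracted in each treatment, none of these 6 members kept a 10-point gap between the pairs, and USP2 gained one in favour of stress. Over 10977 symbols the shares also fell with this correction, to 2.82% for stress and 1.95% for the ligands. The part of GC content in the ranks was not tested.

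**Figure D2:**
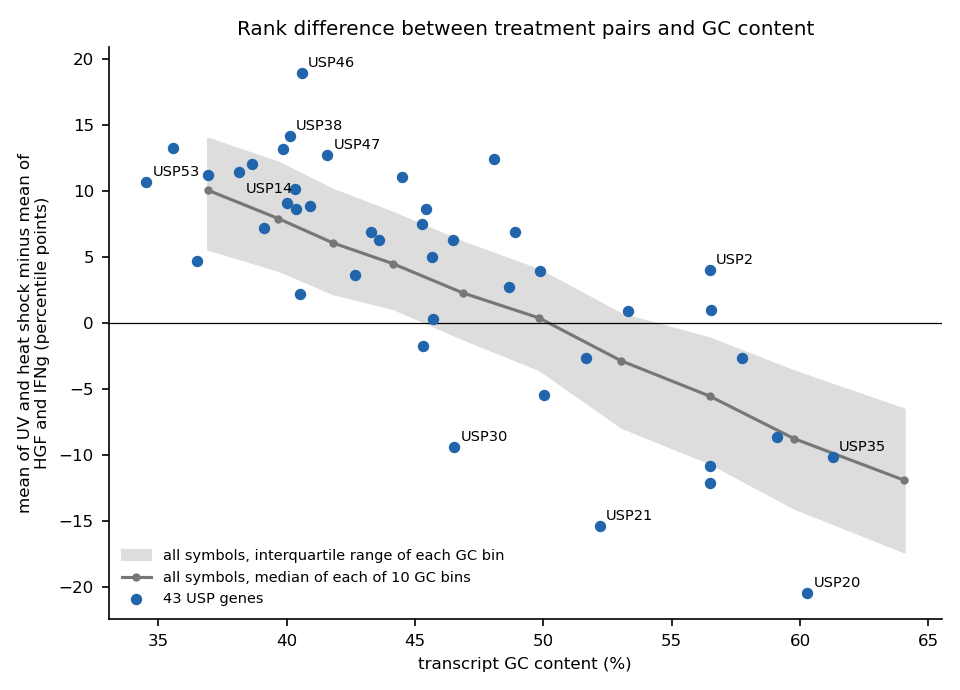
Difference in percentile points between the mean of UV and heat shock and the mean of HGF and IFNg (vertical axis) against transcript GC content in percent (horizontal axis). Blue points are the 43 USP genes past the filter, and the grey line and band are the median and the interquartile range of all symbols in each of 10 GC bins. USP46 and USP38 are among the points above the band, and USP30, USP21 and USP20 are among those below it.

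Members were set beside their close relatives in 17 groups. Mean percentiles within a group differed by 6.37 to 53.6 points, with a median of 12.8, and by more than 30 points in 6 groups. USP22 and USP51 differed most, with mean percentiles of 96.2 and 42.5. USP51 stood at 45.5, 44.3, 38.1 and 42.2. In the group of USP3, USP44 and USP49, all of which act on ubiquitinated histones, USP3 had a mean of 88.8 (90.03, 91.3, 85.8 and 88.2). USP49 had 56.2, 60.5, 59.0 and 61.2, and USP44, known from the spindle checkpoint, had 47.8, 49.3, 27.2 and 24.7. USP32 stood at 78.4, 78.8, 79.7 and 76.8, and its relative USP6 at 47.1, 36.3, 40.5 and 27.5. The groups of USP4, USP11 and USP15 (means within 7.89 points), USP9X, USP24 and USP34 (6.85) and USP2 and USP21 (6.37) lay closest.

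Other deubiquitinase families were set beside the USPs. The 28 genes of the UCH, OTU, Josephin, JAMM and other cysteine families had medians of 79.9, 79.8, 76.1 and 78.0 in treatment order, and 25 of them passed the filter. In 1 treatment, TNFAIP3, the A20 brake on NF-kB, was higher after IFNg (87.9 against 62.6 to 74.1), CYLD lower after HGF (44.5), and ATXN3 and MYSM1 lower after IFNg (48.0 and 56.0). Between the pairs, ATXN3 was higher after stress and OTUB1 and JOSD2 after the ligands. None of 8 USP cofactors was called. Among them WDR48, the partner of USP1, USP12 and USP46, stood at 83.6, 81.7, 76.9 and 80.4, and the SAGA subunit ENY2 at 99.0, 99.4, 95.9 and 93.3.

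After UV, 33 of 50 members had a listed m6A peak (66%, exact 95% interval 51.2 to 78.8). Heat shock had 27 (54%, 39.3 to 68.2), HGF 24 (48%, 33.7 to 62.6) and IFNg 18 (36%, 22.9 to 50.8). The intervals cover counting error only. All of these genes had passed the expression filter. Of the 43 that passed, these were 76.7%, 62.8%, 55.8% and 41.9%, beside 55% (UV), 44.3% (heat shock), 42.7% (HGF) and 28.2% (IFNg) of all symbols past the filter. Of the 25 deubiquitinases of other families past the filter, 17, 14, 14 and 14 had a peak in the same order. A share above that of all symbols was therefore not particular to the USPs, and after IFNg the other families had the larger share. Genes of like rank were then compared in 16 classes, 4 in each treatment. The member share was above that of all symbols in 15 and below it in 1. Each treatment counts the same 50 genes again, so the 16 classes are not independent. With 5 to 19 members in a class the intervals were wide, and all 16 held the share of all symbols. At percentile 90 or more, 11 of 13 members had a peak after UV (84.6%, 54.6 to 98.1) against 67.98% of all symbols, and 4 of 5 after IFNg (80%, 28.4 to 99.5) against 38.3%. From percentile 75 to 90 the member shares were 76.9%, 57.1%, 52.6% and 52.6%, and those of all symbols 64.2%, 52.5%, 52.3% and 39.6%. From percentile 60 to 75 the member shares were 81.8%, 54.5%, 61.5% and 30.8%, and those of all symbols 54.2%, 40.8%, 40.8% and 21.9%. Depth is unknown, so a gene without a listed peak is not shown to lack m6A.

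**Figure D3:**
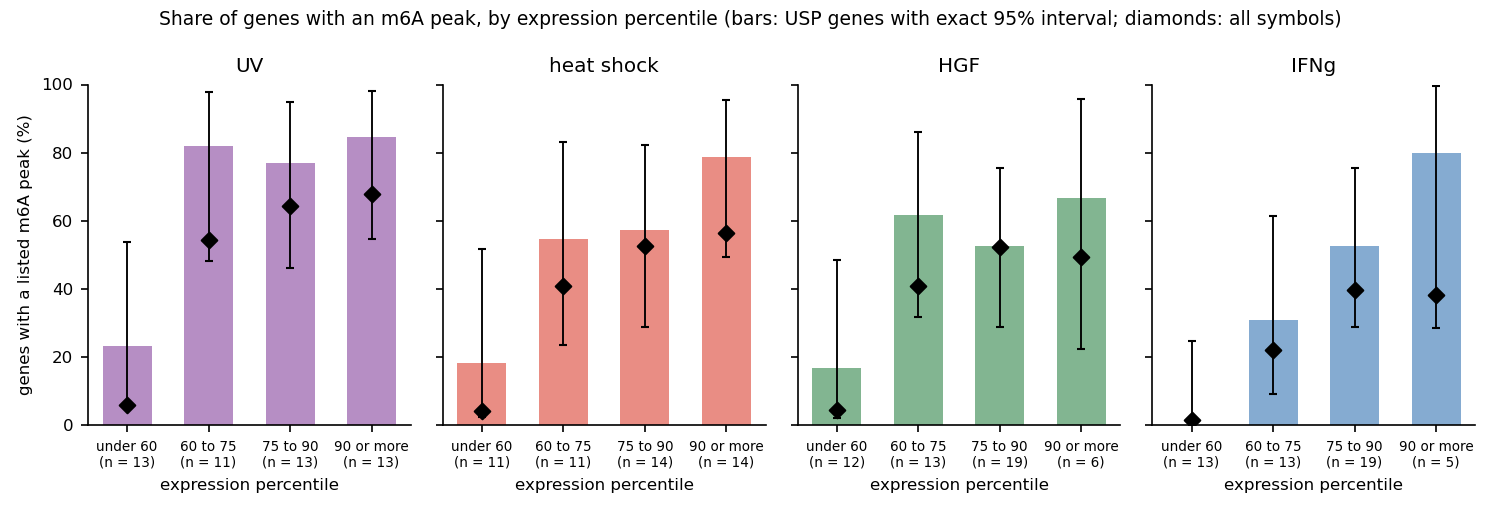
Share of genes with at least 1 listed m6A peak (percent, vertical axis) by expression percentile class (horizontal axis), 1 panel per treatment. Bars are USP genes with exact 95% intervals and their number in brackets, and black diamonds are all symbols. At percentile 90 or more the USP bars run from 66.7% (HGF) to 84.6% (UV), and each interval holds the value of all symbols.

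A peak was listed in all 4 treatments for 12 members (USP4, USP9X, USP10, USP22, USP25, USP31, USP34, USP36, USP38, USP42, USP43 and USP47), in 3 treatments for 14, in 2 for 3, in 1 for 6 and in none for 15. Over all symbols past the filter, 22.6% had a peak in all 4 treatments, 14.7% in 3, 12.1% in 2, 11.3% in 1 and 39.2% in none. Of the 15 without a peak, 7 were those under the filter. The other 8 were USP12, USP19, USP28, USP30, USP33, USP37, USP41 and USP49. USP33 at mean percentile 79.6 and USP19, anchored in the endoplasmic reticulum, at 80.9 were the highest of these. The 5 highest members by rank had 11 peaks after UV: 3 in USP22, 2 in USP7, 2 in USP5 and 4 in USP9X, with 0 in USP1. After IFNg, USP22 had 1, USP9X 4 and USP1 4, while USP7 and USP5 had 0. USP1 was the 1 member with more peaks after IFNg than after UV (2.33%, beside 4.58% of symbols past the filter), and 26 members had more after UV (60.5%, beside 42.2%). The 4 IFNg peaks of USP1 had scores of 2.03 to 2.61, near the lowest listed score of 2.

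Member peaks numbered 71, 51, 46 and 29 in treatment order. Their median scores were 4.79, 3.87, 3.72 and 2.74, against 4.07, 3.72, 3.33 and 3.00 over all peaks. The score is the authors' enrichment value of each peak, listed from 2 upward, and its formula is not given in the sources used here. Coding sequence held 45.1% of the UV peaks of members (33.2 to 57.3), 56.9% of their heat shock peaks (42.2 to 70.7), 67.4% of those of HGF (51.98 to 80.5) and 65.5% of those of IFNg (45.7 to 82.1). Over all peaks the shares were 39.1%, 40.9%, 44.5% and 47.9%, which lie below the intervals after heat shock and HGF and inside them after UV and IFNg. Around the stop codon lay 23.9%, 21.6%, 15.2% and 24.1% of member peaks, against 27.2%, 27.3%, 29.5% and 29% of all peaks. Several peaks of a member share a transcript, so they are not independent.

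Peaks within 100 nt of each other on a transcript were joined, which gave 96 sites in 35 members. Of these, 14 sites in 11 genes were listed in all 4 treatments (14.6%, beside 16.5% of all sites), 20 in 3, 19 in 2 and 43 in 1. Sites listed in a single treatment numbered 24 (UV), 7 (IFNg), 6 (heat shock) and 6 (HGF), or 25%, 7.29%, 6.25% and 6.25% of member sites. Over all sites these shares were 20.99%, 5.24%, 5.07% and 9.01%. Also listed in some other treatment were 66.2% of the UV sites, 88.2% of the heat shock sites, 86.96% of the HGF sites and 75.9% of the IFNg sites. Over all symbols these shares were 71.9%, 90.8%, 82.3% and 82.3%. At the 14 shared sites the peak positions of the treatments lay within a median of 25.5 nt and at most 79 nt of each other. Of the 14, 8 were in coding sequence, 4 around the stop codon and 2 in the 3' UTR. Most member sites, 79 of 96 (82.3%), were in exons of 400 nt or more, and the median exon length was 1303.5 nt. Over all sites the share was 83.9% and the median 1404 nt.

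The members with the most sites were USP38 with 8, USP31 and USP9X with 7 each, USP36 with 6, and USP1 and USP42 with 5 each. For 9 members (USP2, USP3, USP7, USP9X, USP22, USP31, USP36, USP38 and USP47), a GENCODE 29 transcript had the same exon structure at the peaks, and its sequence was read. The sequences below are from the coding strand, 5′ to 3′, with every GGAC, or GGACT where T follows, in capitals. They were chosen as coding windows of 101 nt centred on sites that all 4 treatments listed, with the GRCh38 position of each window. The deposited coordinates themselves are of another build: 0 of 49 member starts lay within 1000 bases of the GRCh38 gene start.
USP38 site at 815 to 857 (chr4:143185730-143185830, plus strand, exon 1): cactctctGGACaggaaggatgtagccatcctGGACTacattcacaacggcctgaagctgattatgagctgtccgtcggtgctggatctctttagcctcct
USP31 site at 2820 to 2861 (chr16:23069215-23069315, minus strand, exon 16): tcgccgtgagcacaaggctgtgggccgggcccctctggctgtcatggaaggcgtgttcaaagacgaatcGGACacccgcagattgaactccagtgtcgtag
USP31 site at 3824 to 3833 (chr16:23068227-23068327, minus strand, exon 16): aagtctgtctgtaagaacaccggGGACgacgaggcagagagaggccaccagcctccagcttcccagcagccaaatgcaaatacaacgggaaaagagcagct
USP9X site at 6521 to 6541 (chrX:41216415-41216515, plus strand, exon 35): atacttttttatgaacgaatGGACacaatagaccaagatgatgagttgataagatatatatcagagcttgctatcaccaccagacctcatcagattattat

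The USP38 window holds GGACT and, upstream of it, a further GGAC, and the USP31 and USP9X windows hold 1 GGAC each. USP38 was listed there at scores of 3.93, 3.68, 3.09 and 2.83. The other 7 sites of USP38, which is encoded on chromosome 4 (144325548 to 144362090 as deposited), were listed in 1 to 3 treatments each and lay in coding sequence or, in 1 case, around the stop codon. In USP31, 3 sites within exon 16, of 8210 nt, were listed in all 4 treatments, and the scores at the first of them were 7.56, 4.75, 3.72 and 3.02. In USP9X the site at 6521 had scores of 4.98 and 4.79 under the stresses against 2.18 and 2.21 under the ligands.

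Outside coding sequence, only the motif and its nearest bases are shown. The first 2 are sites listed in all 4 treatments, and the last 2 are sites of high-ranking members that were not.
USP31 3' UTR site at 4463 to 4485, all 4 treatments: cttctgagcaGGACTtgtccttact
USP22 3' UTR site at 2116 to 2186, all 4 treatments: gcagtaagctGGACacagaggtgt
USP9X 5' UTR site at 563 to 573, UV and heat shock: ttctataagtGGACTataatttctt
USP7 stop codon site at 3480 to 3532, UV, heat shock and HGF: ttcaaggcgaGGACggtgtgtggg

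The USP31 site in the 3' UTR had scores of 6.55, 5.87, 4.11 and 3.36 in treatment order, and the USP22 site 6.65, 4.74, 4.90 and 4.31. Within the USP22 site the peaks lay at 2119 (UV), 2117 (heat shock), 2186 (HGF) and 2116 (IFNg). The GGAC shown for it begins at 2187, so it is next to the HGF peak only. The USP9X site ahead of the coding sequence had scores of 4.59 (UV) and 4.86 (heat shock) and was not listed after either ligand. Not every site had a motif: the stop codon site of USP47, listed in all 4 treatments, had no GGAC in its window. Of 40 member site windows of 101 nt on the 9 transcripts, 27 held GGAC on the transcript strand (67.5%, exact 95% interval 50.9 to 81.4). Of 586 windows tiled along the same transcripts, 26.3% did. Over 3884 site windows of all matched symbols the share was 58.6%, and over their tiled windows 31.2%. GGACT, which is counted within GGAC, was in 8 of the 40 (20%, 9.05 to 35.6), in 6.83% of the tiled windows and in 23.7% of all site windows. A match is a description of the letters and does not show which base was methylated.

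**Figure D4:**
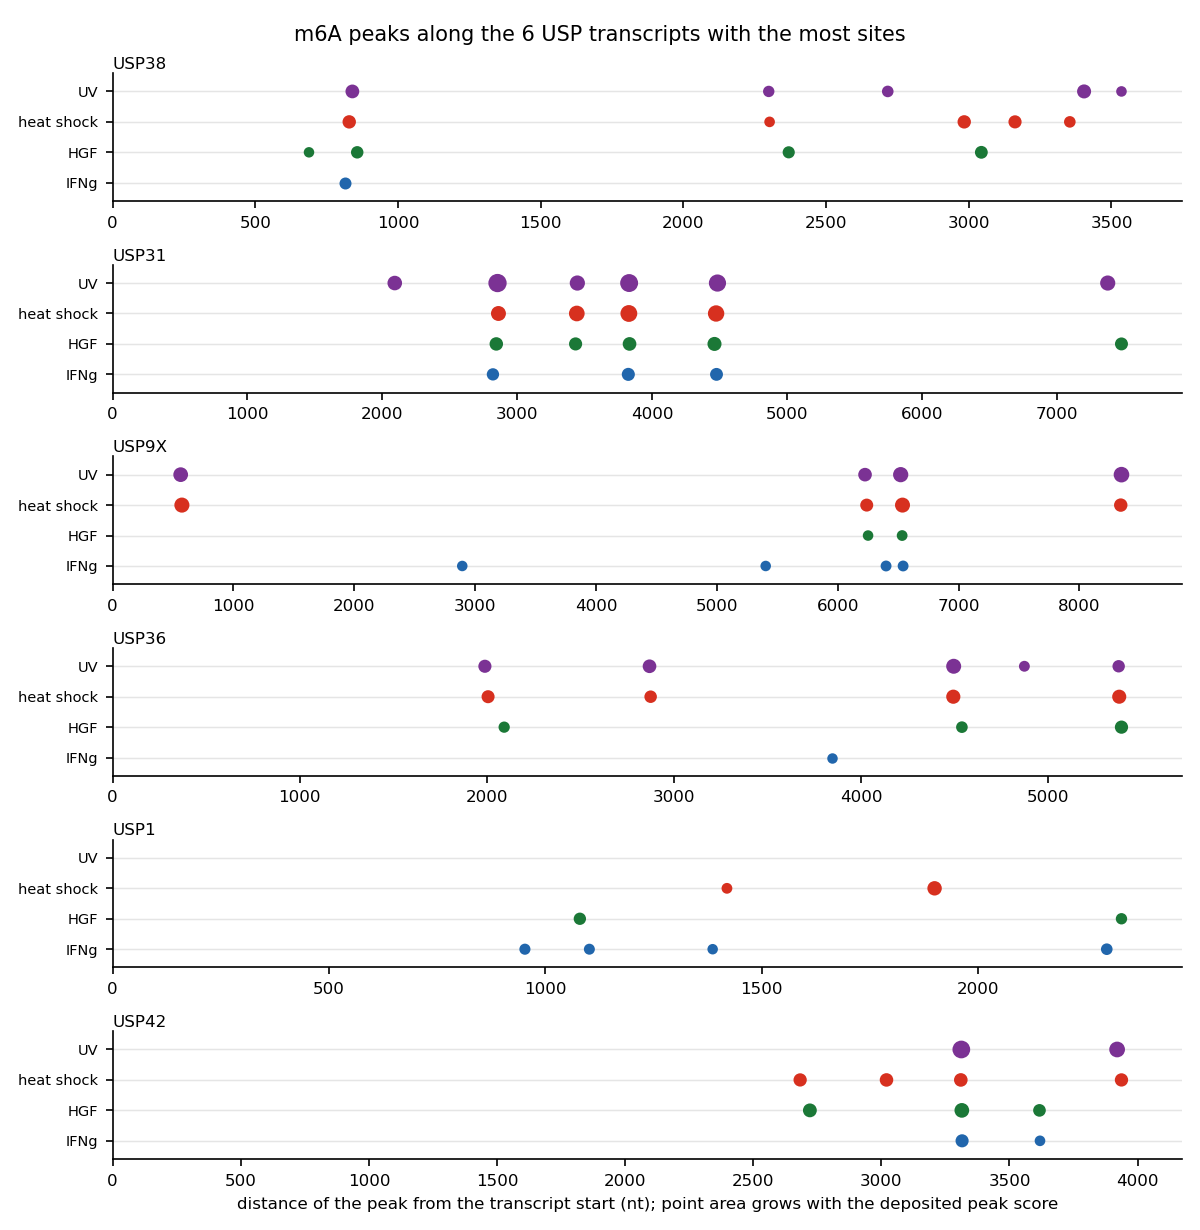
Positions of listed m6A peaks along the transcripts of the 6 USP genes with the most sites, in nt from the transcript start (horizontal axis), with 1 row per treatment. The area of a point grows with the deposited peak score. USP31 shows 3 sites in all 4 rows, and USP1 has no point in the UV row and 4 in the IFNg row, with low scores of 2.03 to 2.61.

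The 6 genes differed in how their peaks were spread over treatments. USP36 had 5, 4, 3 and 1 peaks, and the IFNg peak, at 3846 nt, was at none of the sites of the other treatments. USP9X had 4, 4, 2 and 4 peaks, but 3 of its 4 IFNg peaks, with scores of 2.05 to 2.22, were at positions not listed elsewhere. All 5 USP1 sites were in coding sequence. The USP1 sites that begin at 1080 and 2298 nt were listed after HGF and IFNg, that at 1387 after heat shock and IFNg, that at 1900 after heat shock alone (score 4.38) and that at 953 after IFNg alone. USP42 had a site at 3310 to 3315 in all 4 treatments and 2, 4, 3 and 2 peaks in treatment order.

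At the 14 shared sites, scores were ranked within each treatment among the 2910 such sites of all genes, from 0 to 100. A rank at least 25 points above all other 3 was found at 3 sites (21.4%, beside 18.1% of all shared sites). All 3 were highest after UV, as were 3.95% of all shared sites, and the shares highest after heat shock, HGF and IFNg were 3.33%, 3.2% and 7.59%. The USP31 site at 2820 had ranks of 95.4 (UV), 62.3 (heat shock), 36.3 (HGF) and 38.3 (IFNg). The stop codon site of USP4, an enzyme that acts on the TGF-beta type I receptor among other substrates, had 92.7, 30.2, 54.3 and 39.98. The USP42 site at 3310 had 90.6, 32.9, 61.98 and 56.8.

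A rank at least 25 points below all others was found at 2 sites (14.3%, beside 17.5%). Both were lowest after IFNg, as were 7.87% of all shared sites, and the shares lowest after UV, heat shock and HGF were 3.06%, 2.89% and 3.68%. They were the stop codon sites of USP47, with 98.6, 97.6, 77.1 and 16.3, and of USP34, a protease that acts on axin in Wnt signalling, with 78.4, 99.6, 63.0 and 10.4. The deposited scores of the USP47 site were 8.10, 6.73, 5.15 and 2.48. In contrast, the coding site of USP10, which deubiquitinates p53 in the cytoplasm, was placed within 1 nt in all 4 treatments (1052 to 1053). It ranked 99.1, 91.96, 91.2 and 99.8, and its scores were 8.21, 6.06, 5.98 and 6.65.

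**Figure D5:**
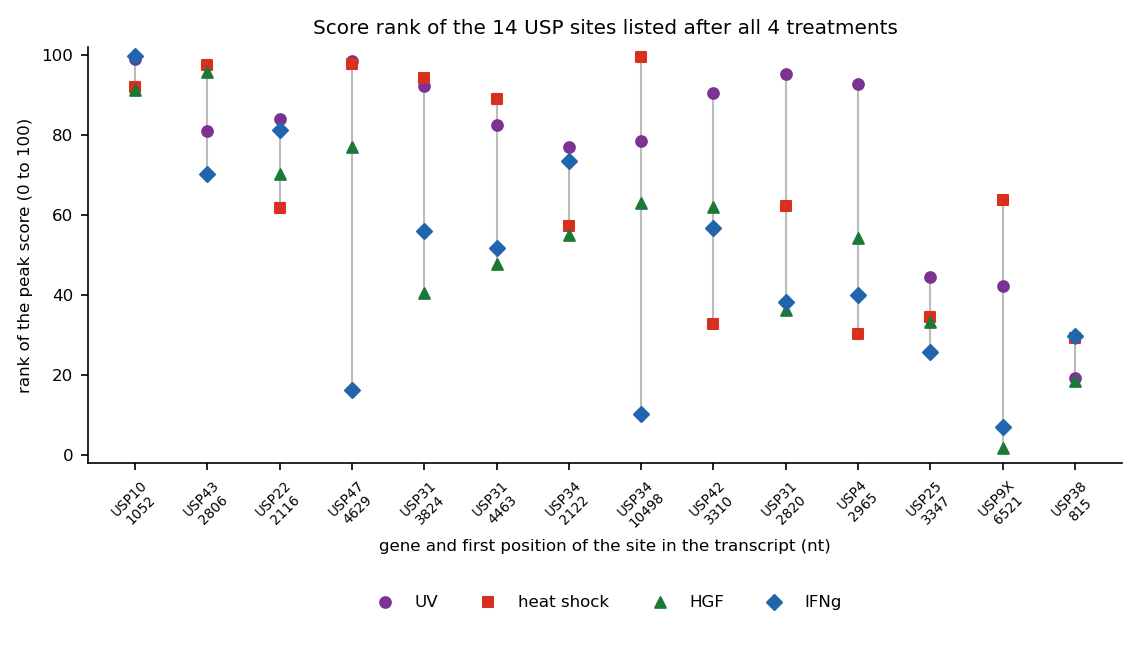
Rank of the peak score (0 to 100 within a treatment, vertical axis) at the 14 USP sites listed after all 4 treatments, ordered by mean rank and named by gene and first position in nt. Symbols mark treatments as in the legend, and grey lines span the 4 ranks. The USP10 site stays above 91 in all 4, while the USP47 and USP34 stop codon sites stand at 16.3 and 10.4 after IFNg.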

How the data were processed

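The deposited table holds, for HepG2 cultures under 4 treatments, the authors' expression quantile per gene model (a fraction from 0 to 1, printed here as a percentile) and, per m6A peak, its position, exon, transcript segment and score. Per the labels' protocols, polyA RNA in fragments of about 100 nt was enriched with an antibody against m6A before sequencing. Aligner, peak caller, score formula, genome build and pooling of libraries are not given in the sources used here. A quantile keeps no depth and compresses differences at the top, and peak lists depend on depth.

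One gene model per symbol was used, that with the highest mean percentile. For calls and for differences between stresses and ligands, floors were raised to the highest. Calls needed 10 percentile points (ranks) or 25 points (score ranks). With 1 library per group no test was possible, so counts of members stand beside the same share over all symbols past the filter. Intervals are exact Clopper-Pearson at 95%. The members and gene lists were chosen with earlier results of these data known.

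Named genes are members with a call, the 5 highest and 5 lowest past the filter, those under it, those with the most sites, those with a score rank call, and the 3 paralogue groups that differ most. Genes named beyond this rule were picked with their values in view. Transcript GC content and transcript sequences came from GENCODE 29 (GRCh38). A transcript was taken as equal where exon number, exon length and position in the exon agreed at every peak and the span was the same. A difference in span was allowed only if the length of the last exon differed by exactly as much. In that case a peak had to lie in the last exon. GC content was found for 88.5% of symbols past the filter and for 49 members. On 1628 matched models, 98.5% of peaks labelled coding lay in the GENCODE coding sequence. Protein sequences were not used here. Software was SciPy 1.17.1, NumPy 2.4.6 and pandas 2.3.3 under Python 3.11.15, with plots by matplotlib 3.10.9.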

Additional observations from a re-analysis of the deposited data

How the results depend on the processing

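Of 132 recomputed values over 36 results, 22 chose among the gene models of a symbol and could not change, since each member had 1 model. Of the other 110, 70 stayed close (counts within 1.5 times, shares within the interval) and 40 did not. Most counts are small. Many of the 70 were counts of 0 that stayed 0, and a stricter step or filter could not have raised these. The 70 are therefore no measure of how firm the results are. With a 5-point threshold, members ranked apart were 1 lower after UV, 2 higher and 2 lower after heat shock, 4 lower after HGF, 1 higher and 6 lower after IFNg, and the pairs gave 16 for stress and 5 for the ligands. The shares of all symbols rose too, to 5.35%, 9.41%, 11.0%, 5.36%, 8.12%, 11.0%, 16.9% and 16.3% in the same order. With 15 points, lower after heat shock and higher after HGF fell to 0, beside 1.36% and 0.572% of symbols. Each pair direction fell to 1 (USP46 and USP20), beside 1.42% of symbols for stress and 3.12% for the ligands. With the filter at percentile 75, or with ranks taken from the top in log2 units and a 2-fold difference, lower after heat shock, higher after HGF and lower after IFNg each came to 0, and the log2 scale left 2 members higher after stress (USP1 and USP14). At that filter the shares of symbols in these directions were 3.97%, 0.898% and 2.86%, and those in log2 units are given above. With floors as deposited, 2 members were lower after HGF (USP41 and USP43), beside 3.09% of symbols. With the GC correction, lower after heat shock and lower after IFNg came to 0, lower after HGF to 1 (USP43), stress to 1 (USP2) and the ligands to 0. The shares of symbols were 1.57%, 1.80%, 1.48%, 2.82% and 1.95% in the same order. Members with a peak scoring 4 or more were 17 (heat shock), 13 (HGF) and 5 (IFNg), and 10 scored 3 or more after IFNg. Of the 19 members at percentile 75 or more throughout, 16, 14, 10 and 12 had a peak after UV, heat shock, HGF and IFNg. Here IFNg stood above HGF, the reverse of the order over all members. At scores of 3 or more, 9 sites were in all 4 treatments. A 15-point step in score rank gave 5 sites higher and 4 lower. For these peak and site counts at other settings, no share of all symbols or of all sites was set beside them. They are therefore not read as results about the members. Among other deubiquitinases, 5 points gave 3 higher and 1 lower after heat shock, 2 lower after HGF, 4 lower after IFNg and 7 higher after stress. The shares of all symbols at 5 points are given above. Changed thresholds and filters move a count by construction; for the other settings the cause was not tested. No paired analysis was possible because each group had 1 library, and for the same reason no replicate could be left out. Protein identity between paralogues was not run. Unknown depth limits every missing peak.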
